A study of Mus musculus with 4 samples.

Results

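The genes examined were those of the proteasome: every gene whose symbol begins with Psma, Psmb, Psmc, Psmd, Psme, Psmf or Psmg followed by a number. The rule matched 50 of 21060 genes with a RefSeq identifier and a symbol, and 43 of the 50 reached the minimum set for the analysis, 100 reads averaged over the libraries, which 8853 genes passed. Of these 43, 42 encode proteasome subunits, activators, an inhibitor or assembly chaperones. The remaining gene, Psme3ip1, encodes a protein that binds the activator PSME3 and is not a subunit.

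The libraries were made from liver polyA RNA of C57/BL6 mice that all carried the ClockΔ19 mutation, the Scg2:tTA driver and the tetO::Clock-HA transgene. All animals drank doxycycline at 30 ug/ml from 3 days before constant darkness until collection, which keeps the tTA activator off its tetO target; before darkness the schedule was 12 h light, 12 h dark. Liver was taken at circadian times CT22, CT28, CT34 and CT40, 6 h apart, with 1 library per time and the RNA of 3 animals pooled in each. No group with an intact Clock gene or without doxycycline entered the comparison, and with no replicate every difference below is one between libraries. Scg2 is a neuroendocrine gene, and whether its driver is active in liver is not given in the labels.

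The proteasome is the protease that degrades proteins tagged with ubiquitin. Its core particle is a barrel of outer alpha rings, which gate the entrance, and inner beta rings, of which PSMB5, PSMB6 and PSMB7 cut peptide bonds. Interferon induces PSMB8, PSMB9 and PSMB10, which replace those catalytic subunits to form the immunoproteasome and shape the peptides presented on class I molecules. A regulatory particle caps the barrel: its base holds the PSMC ATPases that unfold substrates, and its lid carries PSMD14, which removes ubiquitin. In liver, as elsewhere, the transcription factor NFE2L1 raises subunit transcription when proteasome activity falls short.

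In these libraries 13 of the 14 constitutive core particle genes were highest at CT22, the interferon-inducible beta subunit genes were lowest at CT34, and Psme1, which encodes a subunit of the interferon-inducible activator, spanned the widest range. With a trend in GC content and transcript length taken out of each library, 5 of the 14 core genes were highest at CT22, while the inducible genes were still lowest at CT34. Of the regulatory particle, the lid gene Psmd3 went the other way and was lowest at CT22. Values are normalised reads, that is, uniquely mapped reads of a gene divided by the scaling factor of its library. Each ratio has a 95% interval that covers counting error only.

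The CT22 library stood apart before any proteasome gene was considered. Gene reads ranged from 16759153 at CT22 to 19282177 at CT40. For every 100 gene reads the CT22 library held 18.2 mitochondrial and 23.7 intron reads, and the later libraries 6.49 to 10.2 and 16.5 to 19.0. Each gene's log2 value was also taken relative to its own mean over the 4 libraries. A smooth function of GC content and length accounted for 32.9% of the variance of these deviations in the CT22 library. In the others it accounted for 1.04 to 16.5%. Many counts and medians that turn on CT22, and some single genes, are therefore also given with that trend removed. All 8 hepatocyte markers passed the read minimum, and their summed normalised reads lay between 2260984 and 2765546.

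The upstream sequences of a few members are shown because CLOCK acts through the E-box, CACGTG, and because stress and interferon factors have their own motifs. Windows of 250 bases before the annotated start came from RefSeq (GRCm38.p6) for 36 of the 43 genes, in 39 windows. An E-box lay in 5 of these windows (12.8%), those of Psma4, Psmb10, Psmd9, Psme3 and Psme3ip1, and in 6.02% of all 32851 windows. The lines below are the longest stretches of each window outside annotated exons, read in the direction of the gene, with matches in capitals; the palindromic E-box is CACGTG, the antioxidant response core TGACNNNGC, the interferon response motif GAAA repeated with any 2 bases between, and the heat shock motif GAANNTTC, each searched on both strands. Psmb10 (chr8:105938445-105938642, minus strand) holds an E-box; Psme3 (chr11:101315963-101316212, plus strand) holds an E-box; Psmd9 (chr5:123227940-123228189, plus strand) holds an E-box, an antioxidant core and an interferon motif; Psmb5 (chr14:54618023-54618245, minus strand) holds an antioxidant core and a heat shock motif; Psme1 (chr14:55578249-55578359, plus strand) holds none of the 4 in its window.
Psmb10: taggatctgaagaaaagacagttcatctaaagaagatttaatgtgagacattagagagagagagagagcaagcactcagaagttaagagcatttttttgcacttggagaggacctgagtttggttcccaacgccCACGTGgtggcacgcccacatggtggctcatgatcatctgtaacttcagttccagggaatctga
Psme3: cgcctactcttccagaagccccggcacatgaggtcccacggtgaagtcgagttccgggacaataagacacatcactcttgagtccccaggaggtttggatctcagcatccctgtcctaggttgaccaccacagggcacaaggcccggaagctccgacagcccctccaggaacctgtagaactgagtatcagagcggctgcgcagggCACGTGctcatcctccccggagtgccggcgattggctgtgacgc
Psmd9: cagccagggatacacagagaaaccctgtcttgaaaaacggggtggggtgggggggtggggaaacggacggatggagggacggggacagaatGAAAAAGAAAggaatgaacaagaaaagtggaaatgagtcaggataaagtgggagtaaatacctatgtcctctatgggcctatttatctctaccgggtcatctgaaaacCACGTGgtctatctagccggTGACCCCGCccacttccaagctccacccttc
Psmb5: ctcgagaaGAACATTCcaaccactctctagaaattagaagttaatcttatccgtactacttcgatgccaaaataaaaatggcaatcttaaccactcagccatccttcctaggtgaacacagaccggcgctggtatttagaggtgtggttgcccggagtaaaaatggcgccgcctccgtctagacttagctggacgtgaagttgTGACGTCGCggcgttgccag
Psme1: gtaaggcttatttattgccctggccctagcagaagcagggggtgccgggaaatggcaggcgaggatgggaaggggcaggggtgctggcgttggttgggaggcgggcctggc
The antioxidant core, the motif of NFE2L1 and its relatives, lay in 5 member windows (12.8%; 10.2% of all windows), those of Psmb5, Psmb6, Psmc6, Psmd12 and Psmd9. The heat shock motif lay in 3 (7.69%; 6.69% of all) and the interferon motif in 3 (7.69%; 2.98% of all), and the CCAAT box in 13 (33.3%; 33.8% of all). The interferon motif was found at Psmb3, Psmd4 and Psmd9 and not in the windows of the 3 interferon-inducible subunit genes. For 34 of the 39 windows, the bases that follow lay in a reference transcript, or a transcript's first bases lay in the sequence taken. Such a match does not place the transcript start exactly at the end of the window. Windows of Psmb8, Psma7, Psmc2 and Psme3ip1 include those without a match. The E-box at Psme3ip1 and the lack of matches at Psmb8 therefore rest on starts that were not matched. A match describes these letters only, and CACGTG reads the same on both strands.

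Measured by the spread between the highest and the lowest library, 15 of the 43 members spanned at least 1.5-fold, where 43.4% of all tested genes did, and 3 spanned at least 2-fold, where 12.4% did. The 3 were Psme1, Psmg1 and Psmb9. The median range of the members was 1.34-fold against 1.44-fold for all genes. Most members were highest at CT22, 30 of 43 where 36.5% of all genes peaked in that library. Only 2 were highest at CT28 (16.7% of all genes), 5 at CT34 (20%) and 6 at CT40 (26.8%). With the trend removed that majority was gone: 15 members were highest at CT22 (32.9% of all genes) and 15 were lowest there (33.0%). The lowest library was CT40 for 16 members (27.8% of all genes), CT28 for 12 (14.9%), CT34 for 9 (20%) and CT22 for 6 (37.3%).

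**Figure D1:**
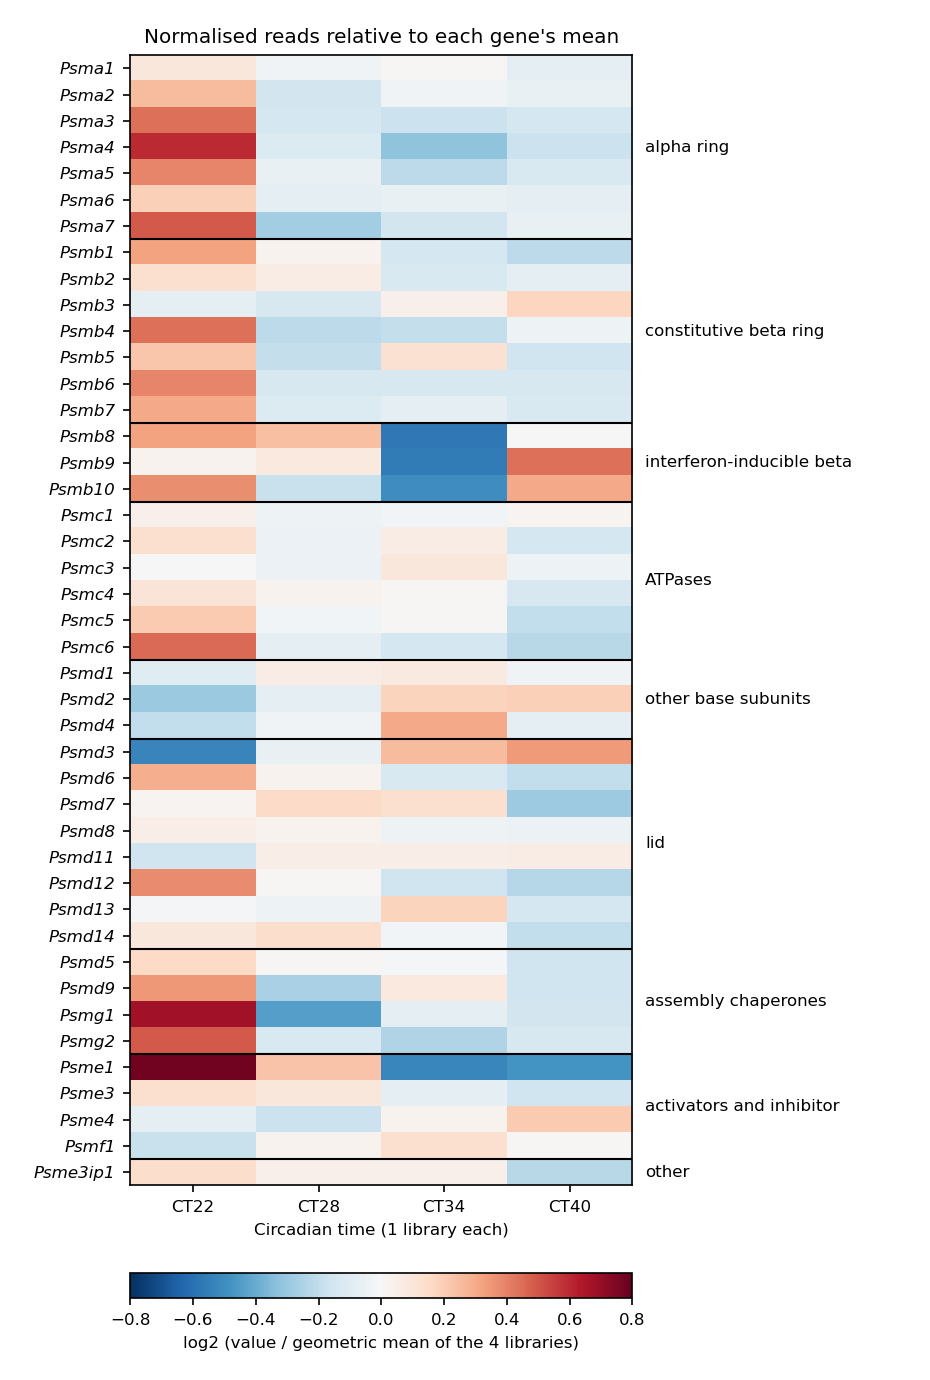
Heat map of the 43 proteasome genes (rows, grouped by role) in the 4 libraries (columns); colour is log2 of the normalised reads over the geometric mean of that gene, and there is 1 library per time. The alpha ring rows are red at CT22, the interferon-inducible beta rows are blue at CT34, and Psme1 runs from 0.77 at CT22 to -0.52 at CT34.

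Between the pair of libraries at CT22 and CT34, 12 h apart, 12 members were at least 1.5-fold higher at CT22 (13.2% of all genes) and 1, Psmd3, at least 1.5-fold higher at CT34 (13.0% of all genes). The median log2 ratio of the members was 0.20 against 0.00 for all genes, and 32 members were higher at CT22 (49.7% of all genes). With the GC and length trend removed, 9 members spanned 1.5-fold (31.8% of all genes) and 2 spanned 2-fold (8.0%). Then 3 were at least 1.5-fold higher at CT22 (7.93% of all genes), 19 were higher at all (50.2%), and the median was -0.09. The 1 member then at least 1.5-fold higher at CT34 (8.04% of all genes) was Psma2, not Psmd3. Between CT28 and CT40, the other pair 12 h apart, Psme1 was the 1 member at least 1.5-fold higher at CT28 (5.43% of all genes), and none was as much higher at CT40 (5.28%). There 25 members were higher at CT28 (51.1% of all genes), with a median log2 ratio of 0.05. With the trend removed 19 members were higher at CT28, where 4477 of 8842 genes were, and the median of the members was -0.07. Without the CT22 library, 4 members spanned at least 1.5-fold, where 15.9% of all genes did, and these were Psme1, Psmb8, Psmb9 and Psmb10.

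The alpha ring genes Psma1 to Psma7 were all higher at CT22 than at CT34, with a median log2 ratio of 0.60. Psma4 had 1401 normalised reads (CT22), 855 (CT28), 742 (CT34) and 822 (CT40), a range of 1.89-fold (1.72 to 2.07). Psma7 had 1151, 673, 736 and 782 in the same order, a range of 1.71-fold. Psma3 had 546, 365, 357 and 366, a range of 1.53-fold. In each the CT22 library was high and the later 3 lay close together. Psma5 also spanned 1.5-fold, while Psma1, Psma2 and Psma6 spanned 1.12-, 1.32- and 1.2-fold. Trend removal took the ranges of Psma4, Psma7 and Psma3 to 1.27-, 1.44- and 1.16-fold, and Psma3 was then highest at CT40. With the trend removed the alpha ring median was -0.15 and 3 of the 7 genes, Psma4, Psma5 and Psma7, were higher at CT22. Psma2 moved furthest, from a log2 ratio of 0.28 to -0.77. Many reads of Psma3 and Psma5 map to more than 1 place, so that the value with multi-mapped reads was 2.32 and 1.93 times the value without them, and their levels are uncertain.

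Among the 7 constitutive beta ring genes, 6 were higher at CT22 than at CT34, and the median log2 ratio was 0.37 (-0.09 with the trend removed, with 2 of 7 higher at CT22). Psmb4, a structural beta subunit, had 1511 normalised reads (CT22), 966 (CT28), 982 (CT34) and 1087 (CT40), a range of 1.56-fold (1.44 to 1.70). Psmb1, another structural subunit, had 1230, 1000, 889 and 852, a range of 1.44-fold. As deposited, CT22 was the highest library for both. The catalytic genes did not follow 1 course. Psmb6, of the caspase-like site, had 2129, 1483, 1489 and 1490, so that the later 3 libraries were nearly level. Psmb7, of the trypsin-like site, had 1570, 1183, 1213 and 1173, with the same shape and a range of 1.34-fold. Psmb5, of the chymotrypsin-like site, had 673, 508, 631 and 519, high in the pair CT22 and CT34 and low in the other pair. Psmb2, a structural subunit, spanned 1.19-fold. Psmb3 alone in the ring was highest at CT40, with 720, 697, 782 and 853 normalised reads. After trend removal Psmb4 and Psmb6 were still highest at CT22 (ranges of 1.35- and 1.33-fold). Psmb1 then had 914, 1027, 1009 and 984, lowest at CT22, and Psmb7 had 1283, 1204, 1318 and 1299, highest at CT34. Over the 14 constitutive core genes, 13 were higher at CT22 than at CT34, and 5 with the trend removed, when the median log2 ratio went from 0.42 to -0.10.

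The 3 interferon-inducible beta subunit genes were all lowest at CT34, and their median log2 ratio of CT22 to CT34 was 0.87, or 0.83 with the trend removed. All 3 were at least 1.5-fold higher at CT22 than at CT34, and 2 with the trend removed, when the log2 ratio of Psmb9 went from 0.59 to 0.35. Psmb8, which replaces PSMB5 and lies on chromosome 17 (34335140 to 34338399, mm9), had 412 normalised reads (CT22), 390 (CT28), 222 (CT34) and 330 (CT40). Psmb9, which replaces PSMB6 and lies close by on chromosome 17 (34319044 to 34324275), had 169, 176, 113 and 225. Psmb10, which replaces PSMB7 and lies on chromosome 8 (108459628 to 108462292), had 493, 338, 270 and 470. In these 3 genes CT34 was low, while the highest library was CT22 for Psmb8 and Psmb10 and CT40 for Psmb9. The ranges were 1.86-fold (1.57 to 2.20), 2.00-fold (1.59 to 2.53) and 1.83-fold (1.57 to 2.13) for Psmb8, Psmb9 and Psmb10. Between CT28 and CT40 they parted: Psmb8 was 1.18-fold higher at CT28 (1.02 to 1.37), whereas Psmb10 was 1.39-fold (1.21 to 1.60) and Psmb9 1.28-fold (1.05 to 1.57) higher at CT40. Psmb9 rested on 111 to 239 reads per library.

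Set against the subunit it replaces, each inducible gene as deposited took its smallest share at CT34. The scale was RPKM, which divides reads by transcript length and library size. Psmb8 was 30.4% of the sum of Psmb8 and Psmb5 (CT22), 35.3% (CT28), 20% (CT34) and 31.1% (CT40). Psmb9 was 9.27%, 13.2%, 8.86% and 16.3% of its sum with Psmb6, and its CT22 and CT34 shares lay close together. With the trend removed, Psmb9 had 149 normalised reads at CT22 and 118 at CT34, and Psmb6 had 1982 and 1520. The Psmb9 share was then no longer smallest at CT34. Psmb10 was 19.3%, 17.9%, 14.5% and 23.4% of its sum with Psmb7. The constitutive gene was therefore the more abundant of each pair in all 4 libraries. Leukocytes express the inducible subunits strongly, and in a whole-liver sample fewer such cells and less RNA per cell cannot be told apart. The 13 leukocyte markers found, none of them at 0 in any library, summed to 3585 normalised reads (CT22), 3676 (CT28), 4563 (CT34) and 3733 (CT40), so the sum was highest in the library in which the inducible subunits were lowest. Of the 13, 6 passed the read minimum. Single markers went different ways: 4 of the 13 were highest and 4 lowest at CT34. The part of leukocytes in the result was not tested.

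**Figure D2:**
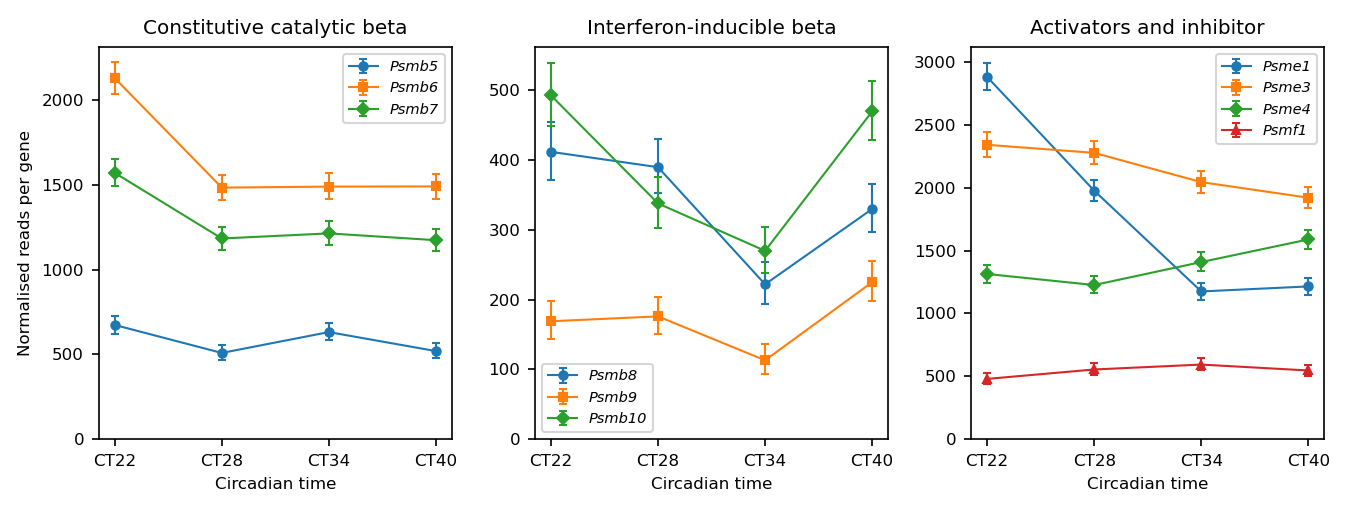
Normalised reads (linear axes from 0, a scale of its own in each panel) at the 4 circadian times for the constitutive catalytic beta genes, the interferon-inducible beta genes, and the activators with the inhibitor Psmf1; points are single libraries and bars are 95% Poisson intervals of the reads. The inducible genes dip at CT34 to 222, 113 and 270, and Psme1 is at 2882 in the CT22 and 1175 in the CT34 library.

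Psme1 had the widest range of all members. It encodes the alpha subunit of the activator that interferon induces and that opens the core particle without ATP, and it lies on chromosome 14 (56197331 to 56200364, mm9) in 11 exons. It had 2882 normalised reads (CT22), 1977 (CT28), 1175 (CT34) and 1215 (CT40), high in the earlier 2 libraries and low in the later 2. The range was 2.45-fold (2.29 to 2.63), or 2.16-fold with the trend removed. A 24-h cosine fitted to the 4 libraries across all genes called Psme1 alone among the members (limma, adjusted p = 0.00631), with a fitted peak at circadian hour 23.9, where 5.34% of all genes were called. The period was assumed and less than 1 cycle was sampled; the model left 1 residual degree of freedom and took its spread wholly from other genes of like level, a median SD of 0.249 on the log2 scale, so the call acts as a threshold on size. Other tools gave Psme1 an adjusted p of 0.00451 (edgeR), 0.019 (limma without the mean trend), 0.0562 (DESeq2) and 0.145 (limma with the GC and length trend removed, when 0.543% of all genes and no member were called), and at an unadjusted p under 0.05 the model named 5 members, where 16.3% of all genes passed. Junction reads, counted where a read crosses from exon to exon, gave a log2 ratio of CT22 to CT34 of 1.12, and intron reads 1.18, beside 1.29 for the transcript. The 2 parts of the transcript differed in size, with 1.45 over the 3' part and 0.83 over the 5' part. Part values are sums over exons. At CT22 the 3' part of Psme1 held 6073 reads and its junctions 3389, beside 2707 for the transcript. Neither readout is therefore a division of the transcript's reads.

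Its partner Psme2, the beta subunit of the same activator, lies next to it (56206277 to 56209938) and missed the read minimum. It had 119 unique reads (CT22), 84 (CT28), 55 (CT34) and 124 (CT40), again lowest at CT34. With multi-mapped reads included the reads were 847, 624, 377 and 624, which is 6.47 times the unique value, and CT34 was the lowest here too. The other activators varied less. Psme3, the nuclear activator, had 2342, 2278, 2045 and 1921 normalised reads, a range of 1.22-fold. Psme4, a large activator linked to histone turnover, had 1314, 1226, 1409 and 1589, a range of 1.30-fold with CT40 the highest. Psmf1, an inhibitor of the core particle, had 479, 554, 593 and 546, and was lowest at CT22.

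In the regulatory particle 8 of the 17 base and lid genes were highest at CT22, 5 of them ATPases. With the trend removed 3 of the 17 were (32.9% of all genes), 2 of them ATPases. The median log2 ratio of CT22 to CT34 over the 17 was 0.06, or -0.20 with the trend removed. The difference from the core was not tested. Of the 6 ATPase genes 5 were higher at CT22 than at CT34, with a median log2 ratio of 0.07 (-0.08 with the trend removed). Psmc6 was the exception in size, with 1134 normalised reads (CT22), 787 (CT28), 755 (CT34) and 714 (CT40), a range of 1.59-fold; with the trend removed its log2 ratio went from 0.59 to -0.49. Psmc5 had 1626, 1382, 1410 and 1216 (1.34-fold) and Psmc2 1531, 1355, 1468 and 1275 (1.2-fold). The 2 parts of the Psmc5 transcript went opposite ways, with a log2 ratio of CT22 to CT34 of 0.74 over the 3' part and -0.57 over the 5' part. The remaining ATPases, Psmc1, Psmc3 and Psmc4, spanned 1.05- to 1.17-fold.

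The 3 other base genes were all lower at CT22 than at CT34, with a median log2 ratio of -0.48 (-0.33 with the trend removed, when all 3 were still lower). Psmd4, the ubiquitin receptor, had 1252 normalised reads (CT22), 1412 (CT28), 1770 (CT34) and 1366 (CT40), highest at CT34. Psmd2, a scaffold that binds shuttle proteins, had 1532, 1789, 2141 and 2149. Psmd1, the other scaffold, had 2104, 2350, 2378 and 2219, a range of 1.13-fold. All 3 were lowest at CT22.

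Among the 8 lid genes, 4 were higher at CT22 and 4 at CT34, and the median log2 ratio was -0.01 (-0.24 with the trend removed). Psmd3, a structural lid subunit on chromosome 11 (98543868 to 98557292, mm9), had 1267 normalised reads (CT22), 1761 (CT28), 2180 (CT34) and 2314 (CT40), a range of 1.83-fold (1.70 to 1.96). As deposited it was the 1 member at least 1.5-fold lower at CT22 than at CT34, a call lost with the trend removed. Its log2 ratio of CT22 to CT34 was -0.78, or -0.56 with the trend removed and -0.93 over junction reads, while its intron reads gave 0.06. Psmd12 had 991, 769, 682 and 647 (1.53-fold) and Psmd6 732, 615, 555 and 522 (1.40-fold), both highest at CT22 and lowest at CT40. With the trend removed Psmd12 spanned 1.13-fold and Psmd6 1.09-fold, and Psmd6 was then highest at CT28. Psmd14, the deubiquitinase, had 473, 489, 439 and 387, a range of 1.26-fold. Psmd7, its partner, had 1237, 1348, 1331 and 994. The remaining lid genes, Psmd8, Psmd11 and Psmd13, spanned 1.07- to 1.25-fold.

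All 4 assembly chaperone genes that passed the minimum were highest at CT22. Psmg1, which with PSMG2 builds the alpha ring, had 530 normalised reads (CT22), 245 (CT28), 315 (CT34) and 299 (CT40), a range of 2.17-fold (1.86 to 2.53) between CT22 and CT28, and of 1.86-fold with the trend removed. Psmg2, its partner, had 170, 112, 102 and 110, a range of 1.66-fold with the same library high, and of 1.18-fold with the trend removed. Psmd9, which helps build the base, had 614, 403, 509 and 432 (1.53-fold), and Psmd5, another base chaperone, 592, 534, 524 and 474 (1.25-fold). The readouts of Psmd9 differed. Its junction reads, 211, 205, 275 and 302 before scaling, were highest at CT40. Their log2 ratio of CT22 to CT34 was -0.31, beside 0.27 for the transcript. The 3' part of the Psmd9 transcript gave 0.87 and the 5' part -0.09. With the trend removed, 3 of the 4 were higher at CT22 than at CT34, all but Psmd5, and the median log2 ratio went from 0.50 to 0.33. Psme3ip1 had 443, 415, 414 and 347.

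**Figure D3:**
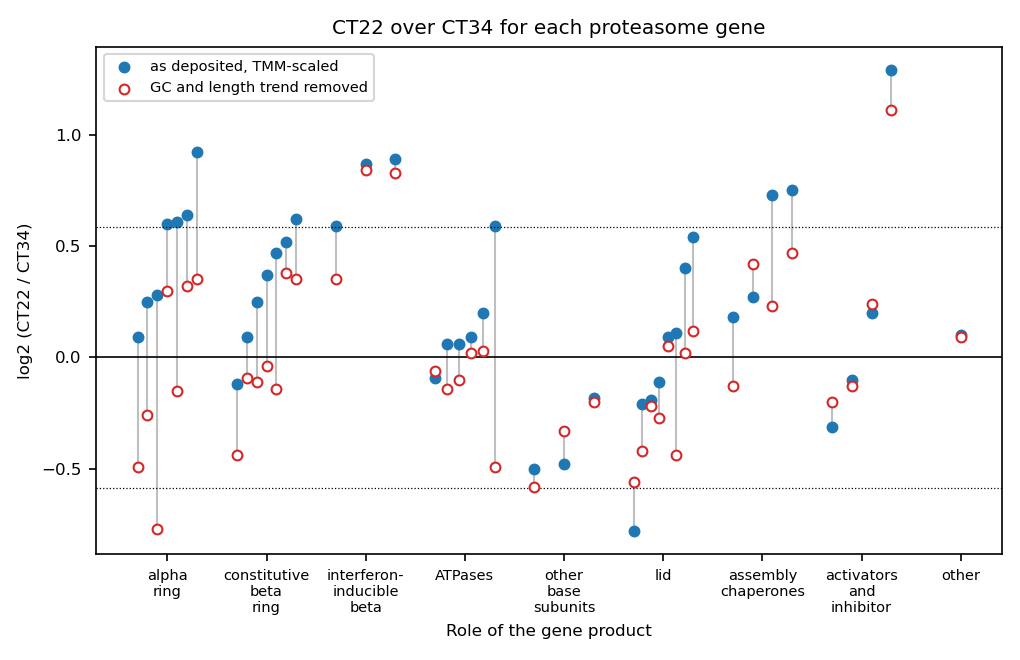
Log2 ratio of CT22 to CT34 for each of the 43 genes by role, before (filled points) and after (open points) removal of the trend in GC content and transcript length; dotted lines mark 1.5-fold. The alpha ring median goes from 0.60 to -0.15, while the interferon-inducible beta median stays near its place, from 0.87 to 0.83, and the other base genes stay below 0.

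Transcript length was set against the log2 ratio of CT22 to CT34 over all members. Across the 43 members the correlation of the log2 ratio of CT22 to CT34 with log length was -0.51, beside -0.28 over all genes. With the trend removed it was -0.20, beside 0.00 over all genes, while the correlation with GC content over the members went from -0.12 to 0.42; the genes share the same 2 libraries, and this is a description with no test. The core genes are short, from 731 to 1418 bases over the alpha and constitutive beta rings, whereas the lid transcripts run from 1296 to 2147 bases. No correlation was computed within the core. Its shortest transcript, Psmb3, had a log2 ratio of CT22 to CT34 of -0.12 and its longest, Psma3, 0.61. Per length, alpha ring genes lay between 8.40 and 35.5 RPKM (means of the 4 libraries), constitutive beta genes between 25.2 and 59.6, ATPases between 20.3 and 43.5, and lid genes between 10.9 and 53.9. Inducible beta genes lay between 8.01 and 11.6 and chaperones between 4.36 and 13.1. Psme1, at a mean of 68.3 RPKM, was the most abundant member, followed by Psmb6 at 59.6.

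Intron reads can come from RNA not yet spliced, but their origin was not measured, and other genes or exons inside an intron were not removed. They were higher at CT22 than at CT34 in nearly all members. All 43 members had at least 50 intron reads, and 42 were higher at CT22 than at CT34, where 83.4% of all genes with as many were; 41 were higher at CT28 than at CT40 (74.6%). The median log2 ratio of CT22 to CT34 was 0.68 for member introns and 0.57 for all genes. Psmd9 was the exception at CT22. Psmd14 had 347 normalised intron reads (CT22), 163 (CT28), 77.1 (CT34) and 81.0 (CT40), a log2 ratio of 2.17 for introns beside 0.11 for the transcript. Psmd3 had 237, 221, 228 and 177, nearly level over the first 3 libraries while its transcript had 1267, 1761, 2180 and 2314. The highest library of the introns was that of the transcript for 28 members (65.1%), against 44.7% of all genes. CT22 was the highest library for 38 member introns and for 30 member transcripts, and agreement near this size follows from those counts alone. The higher share is therefore no sign that member introns follow their transcripts more closely. The intron share differed between the libraries in all genes, as given above.

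Junction reads placed 27 of the 43 members higher at CT22 than at CT34, where 35.9% of all genes were, with a median log2 ratio of 0.21 against -0.23. They lay on the same side as the transcript for 38 of the 43 members (88.4%), and for 81.7% of all genes. Junction reads come from the same libraries and are no replicate.

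**Figure D4:**
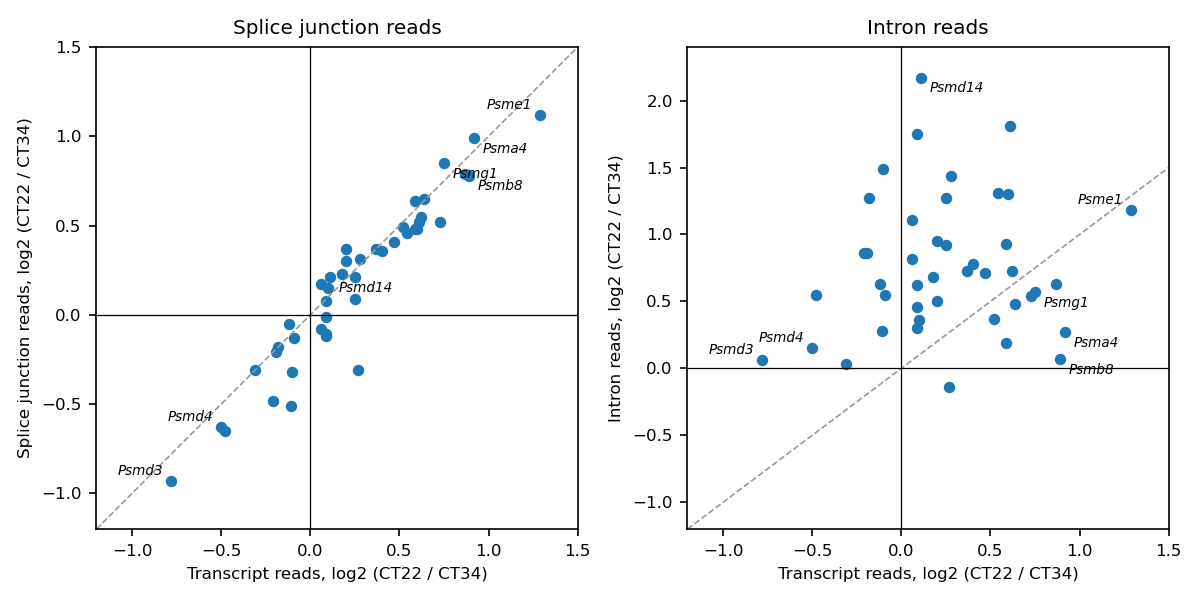
Log2 ratio of CT22 to CT34 over transcript reads (horizontal axis) against that over splice junction reads (left) and intron reads (right) for the 43 genes; the dashed line marks equal ratios. Junction points lie close to the line, with Psme1 at 1.12 and Psmd3 at -0.93, while nearly all intron points lie above 0.

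Genes that work with the proteasome were read from 5 lists. Of 17 cofactor and shuttle genes that passed the minimum, 8 spanned at least 1.5-fold (43.4% of all genes), 2 were at least 1.5-fold higher at CT22 than at CT34 (13.2%) and 4 the reverse (13.0%). With the trend removed the counts were 7 (31.8% of all genes), 1 (7.93%) and 6 (8.04%). Ubqln2, a shuttle for tagged proteins, had 257 normalised reads (CT22), 421 (CT28), 551 (CT34) and 685 (CT40), a range of 2.67-fold (2.30 to 3.10). Akirin2, which helps carry proteasomes into the nucleus, had 144, 164, 280 and 239. Pomp, the chaperone that matures the core particle, had 2547, 1632, 1417 and 1328, high at CT22, and with the trend removed its range went from 1.92- to 1.32-fold. Uchl5, a deubiquitinase of the regulatory particle, had 204, 148, 140 and 106, but 140, 152, 166 and 127 with the trend removed, so that CT22 was no longer its highest library. Ubqln2 was called by the cosine (limma, adjusted p = 0.0297; edgeR 0.0442), but not by limma without the mean trend (0.0684), by DESeq2 (0.624) or with the GC and length trend removed (0.32).

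Of 4 ubiquitin and E1 genes, 3 spanned 1.5-fold (43.4% of all genes) and 2 were at least 1.5-fold higher at CT34 than at CT22 (13.0%). With the trend removed the counts were 2 (31.8% of all genes) and 1 (8.04%). Uba1, the main ubiquitin-activating enzyme, had 3470, 5597, 5739 and 6495, lowest at CT22.

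Of 11 genes of the p97 and NFE2L1 control, 2 spanned 1.5-fold (43.4% of all genes), and 1 with the trend removed (31.8%). Nfe2l1, the factor that raises subunit transcription, had 1966 normalised reads (CT22), 2461 (CT28), 2446 (CT34) and 2319 (CT40), a range of 1.25-fold (1.18 to 1.33), and was lowest at CT22. With the trend removed it had 2271, 2422, 2299 and 2170 and was lowest at CT40. Nfe2l2, its relative in the response to oxidants, had 1019, 1291, 1236 and 1027, low at CT22 and CT40. Ufd1, a p97 cofactor, had 579, 408, 362 and 314, and Nploc4, its partner, had 1478, 2023, 2264 and 2143: Ufd1 was highest and Nploc4 lowest at CT22, and with the trend removed their log2 ratios of CT22 to CT34 were 0.46 and -0.25. Ngly1, an enzyme that acts on NFE2L1, had 408, 357, 341 and 284, and Keap1, which holds NFE2L2 in check, 774, 956, 1111 and 870. Of 7 targets of NFE2L2, 2 spanned 1.5-fold (43.4% of all genes), and 3 with the trend removed (31.8%). Nqo1, a quinone reductase, had 216, 135, 113 and 190, Hmox1, heme oxygenase, 339, 338, 337 and 223, and Gclc, of glutathione synthesis, 3255, 3813, 4434 and 4575, so no course was shared.

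Of 13 class I presentation genes, 7 spanned 1.5-fold (43.4% of all genes), 1 was at least 1.5-fold higher at CT22 than at CT34 (13.2%) and 3 the reverse (13.0%). With the trend removed the counts were 7 (31.8% of all genes), 1 (7.93%) and 2 (8.04%). Tap2, a peptide transporter subunit, had 205 normalised reads (CT22), 343 (CT28), 333 (CT34) and 431 (CT40). Tap1, its partner, had 297, 516, 462 and 564. B2m, the class I light chain, had 76330, 71383, 44045 and 41046, high in the earlier 2 libraries. With the trend removed it had 48591, 74296, 53588 and 50918, with CT22 the lowest. Tap1 and Tap2 were lowest at CT22, with or without the trend. Chosen after their values were seen, Nlrc5, a transactivator of class I genes, was lowest at CT34 with the inducible subunits and had 481, 510, 366 and 581. Irf1, a transcription factor of the interferon response, had 340, 485, 603 and 487 and was highest at CT34.

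The 7 genes under the read minimum were Psmb11, a thymus-specific beta subunit, Psma8, a testis alpha subunit, Psmc3ip, a recombination factor and not a subunit, and Psmg4, Psmd10, Psmg3 and Psme2. Psmb11 had 1 read in all 4 libraries together and Psma8 a mean of 9.2. Psme2, at a mean of 95.5 reads, lay just outside the minimum, and Psmg2, at 122.8, just inside. Of the 43 members, 36 had an upper value, which includes multi-mapped reads, less than 1.1 times the lower one, and 6 had one at least 1.2 times it. Strand was not marked in library construction, and reads of antisense or overlapping genes cannot be told apart from those of a member.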

How the data were processed

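Liver polyA RNA from 4 circadian times was sequenced, 1 library each. The authors deposited, per library, a lower and an upper value for each transcript, exon and intron, with no stated unit, and splice junction lists with counts of reads, found with RUM per the file headers; the submitters' processing notes name mm9. For the aligner version and counting rule: not given in the sources used here. Multiplied by length, the deposited feature values of 99.41 to 99.51% of transcripts came out as whole numbers of reads (within 0.05) once divided by a constant of the library. Hence the values were taken to be RPKM. The lower value was read as unique reads and the upper as counting multi-mapped ones too; both readings are inferred from the values.

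Reads were recovered as value times length over that constant. Of 115699 transcripts, 27235 had a RefSeq identifier and 25894 matched a symbol; the transcript with the highest mean stood for each gene. Genes averaging at least 100 reads were scaled by TMM (edgeR 4.0.16). Ratios have exact conditional binomial 95% intervals; PCR reads are not independent molecules, so these cover counting error only. The cosine (24 h, limma 3.58.1, F test, R 4.3.3) used log2 of the scaled value plus 0.1, which understates changes of low genes, with Benjamini-Hochberg adjustment over 8853 genes and a call at 0.05; the step was tested on simulated data. edgeR's quasi-likelihood test and DESeq2 1.42.0 on recovered reads were alternatives. The trend removed was cubic in GC content and log length, with GC known for 99.9% of genes. Members, lists and tests were chosen with earlier results of these data known. Named genes were the 3 with the widest range in each role or list, the inducible beta subunits with their counterparts, the activators and Psmf1, members that spanned 2-fold, Nfe2l1 and Nfe2l2; others are named to account for all members. Some genes the rule names are not reported here. Endothelial markers summed to 1694, 1822, 3191 and 2472 normalised reads in the order of the times, stellate markers to 4139, 3215, 3510 and 2827, and cholangiocyte markers to 238, 470, 487 and 424. Tables were handled in Python 3.11.15 with pandas 2.3.3, scipy 1.17.1 and numpy 2.4.6.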

Additional observations from a re-analysis of the deposited data

How the results depend on the processing

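Of 204 alternatives, 103 on counts and medians and 63 on single genes kept the value within the limit set for a change, 1.5 times for counts. A count within it can still cross the middle or name other genes: 19 members (trend removed) and 20 (total-read scaling) were higher at CT28 than at CT40, against 25. The cause of the changes was not tested. Shares over all genes are not given here for these alternatives. With the GC and length trend removed, both medians reversed: the CT22 over CT34 median was -0.09 and the CT28 over CT40 median -0.07; 9 members spanned 1.5-fold, 3 were 1.5-fold higher at CT22 than at CT34, 19 were higher there at all, and 0 passed the cosine. With a minimum of 500 reads, 9 spanned 1.5-fold, 1 spanned 2-fold, 6 were 1.5-fold higher at CT22 than at CT34 and 0 passed the cosine; with 20 reads, 1 was 1.5-fold higher at CT40 than at CT28 and 0 passed the cosine. The cosine called 0 members with total-read scaling and with DESeq2 and 2 with the upper value. The 3' part of transcripts alone gave 5 members with a 2-fold range and 2 higher at CT40 than at CT28 by 1.5-fold. The 5' part alone, chosen with the untrended limma fit after seeing the data, gave 25 with a 1.5-fold and 5 with a 2-fold range, 2 higher at CT40 than at CT28, 2 higher at CT34 than at CT22, a CT28 over CT40 median of 0.13 and 0 cosine calls; the CT22 over CT34 median was 0.45 in the 5' and 0.11 in the 3' part. Intron reads put 41 members higher at CT28 than at CT40. Leaving out 1 library gave 4 to 14 members with a 1.5-fold range (4 without CT22), 0 to 2 with a 2-fold range (0 without CT22, 1 without CT28) and 0 to 1 that were 1.5-fold higher at CT40 than at CT28. The cosine cannot be refitted without a library, since no residual degree of freedom is left. No paired analysis was possible because each time has 1 library and the results come from no test between groups. Depth limits Psmb9, Psmg2 and the members under the minimum most.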

Other observations

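Splice junctions that no listed transcript holds were few within the members. Psmd8 had 8 such junctions with 51 reads in all, 22 of them over 1 junction, and Psme4 had 10 with 37 reads, 25 over 1 junction. Psmd11 had 15 with 38 reads. Psme1, the most abundant member per length, had 10 with 30 reads in all, beside 3389 reads over its listed junctions at CT22 alone.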
